A study of Zea mays with 16 samples.

Results

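The water stress response of kernels of the maize (Zea mays) line RIL66 was measured on 4 of the 16 2-colour arrays of the study, those whose titles name the first susceptible line. RIL66 is a recombinant inbred line, that is, a fixed genotype bred from a cross by repeated selfing, and the submitters describe it as drought susceptible. Each array carried poly(A) RNA of stressed RIL66 kernels in one dye and of well watered RIL66 kernels in the other, so each array gives a ratio of stress over well watered. Stressed RNA carried Cy3 on replicates 1 and 2 and Cy5 on replicates 3 and 4. Plants of both groups grew in an open field and were fully irrigated until 3 weeks before flowering. From then on the soil of the stressed plants was held near 16% moisture by dry weight and that of the well watered plants near 30%, with 2 randomised blocks per treatment. Kernels were taken 10 days after pollination, and 6 to 9 kernels of 3 ears were pooled for each RNA. RIL68, the other susceptible line, and RIL60 and RIL78, which the submitters call tolerant, were grown and sampled in the same manner and measured on 4 arrays each. Their dye order was the reverse of that of RIL66: stressed RNA carried Cy5 on replicates 1 and 2 and Cy3 on replicates 3 and 4. One label of stressed RIL66 RNA joins the words for both conditions, but its other labels give the condition as stress, and that direction is used here.

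In the days after pollination the maize endosperm divides, forms its cells and begins to fill with starch and storage protein, while the embryo is still small. Water shortage around flowering is known to cut the flow of sugars to young kernels and to cause kernel abortion, and abscisic acid and its target genes are among its known signals. The microarray holds 1000 probes, each spotted in duplicate. The files name the probes by number only, and none of the 1000 probe numbers was found in the gene table used here. No probe is therefore tied to a gene, a pathway or a kernel tissue below, the lists of stress, starch, storage protein and cell type genes could not be applied, and the tissue label could not be checked against markers. The series calls the 4 arrays of a line replicate hybridisations and does not state whether the RNA extracts or field plots behind them differed, so p-values reflect a spread that may be purely technical. In pools of whole kernels, fewer cells of a type and less RNA per cell cannot be told apart.

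The 4 RIL66 arrays differed in quality. The share of probe spots above local background in at least 1 channel was 45.2%, 72.2%, 30.3% and 76.3% on replicates 1 to 4, and the correlation between duplicate spots was 0.28, 0.69, 0.50 and 0.53. On all 4 arrays the median background was higher in the stress channel than in the well watered channel, by 1.54 to 3.64 times and in either dye, whereas this was so on 6 of the 12 arrays of the other lines. Fewer spots were above background under stress (17.6%, 50.9%, 19.1% and 35.4%) than under full watering (43.8%, 71.2%, 28.6% and 75.8%). Per the file headers, replicates 1 and 2 share a day, replicate 3 has a day of its own, and replicate 4 shares its day with 3 arrays of RIL68. No day holds arrays of RIL66 together with RIL60 or RIL78. In RIL68, replicate 2 stands apart from its line at the 2 probes that rose most in RIL66, and the differences from RIL68 are given with and without it. That array is the only one of its day, so array and day cannot be told apart there.

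Control spots moved on some of these arrays. Spots named mwgratcontrol (24 per array) had a median log2 ratio of stress over well watered of 0.14 on replicate 1, 0.84 on replicate 2, 0.10 on replicate 3 and 0.71 on replicate 4. Replicates 2 and 4 thus stood above every array of the other lines, whose medians ran from -0.06 to 0.34. The medians depended on the processing: they were 0.06, 0.38, 0.05 and 0.16 with no background correction, 0.09, 0.55, 0.09 and 0.30 with plain subtraction, and 0.24, 0.87, -0.02 and 1.07 with median centring. Many of these spots were dim: the stress channel was above background at 0, 12, 0 and 7 of 24 on replicates 1 to 4. The well watered channel was above background at 5, 12, 0 and 15 of 24. The shift was uneven among the spots, with quartiles of 0.06 and 1.24 on replicate 2 and of 0.38 and 1.21 on replicate 4. The bright control a116pe1001 lay between -0.09 and 0.14 on the 4 arrays, and a116pe1002 had medians of -0.26, -0.22, -0.10 and -0.05. The part of the mwgratcontrol shift in the results below was not tested.

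**Figure D1:**
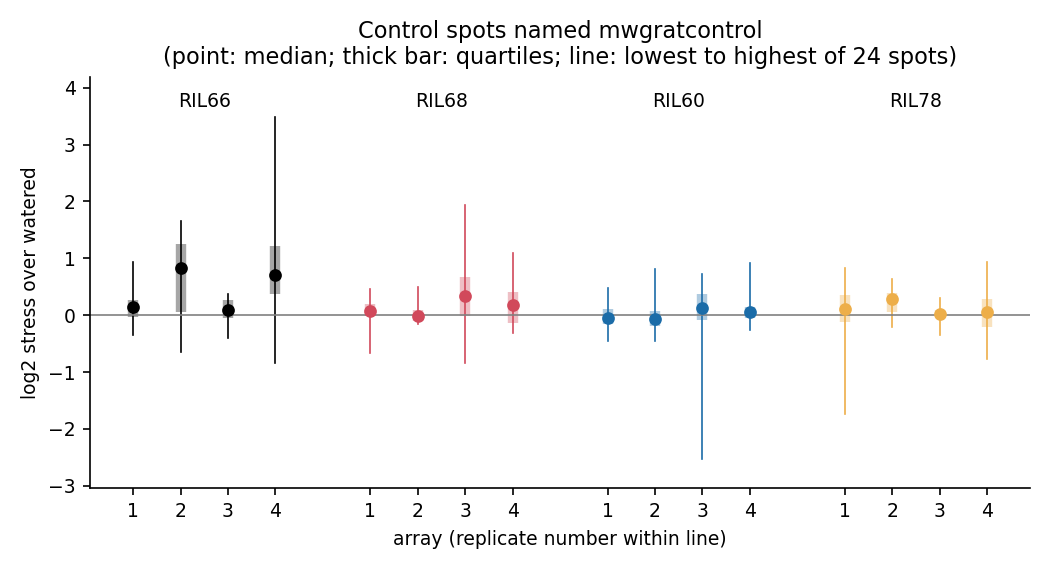
Log2 ratio of stress over well watered at the 24 spots named mwgratcontrol on each of the 16 arrays, by line and replicate number. Points are medians, thick bars quartiles and thin lines the lowest to the highest spot. The medians of RIL66 replicates 2 (0.84) and 4 (0.71) lie above those of the other 14 arrays.

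Under water stress 26 of 1000 probes passed the test in RIL66 (limma, Benjamini-Hochberg adjusted p under 0.05), which is 2.6% of the probes. Of these, 24 were higher under stress (2.4%) and 2 were lower (0.2%). The rises had a median log2 ratio of 0.92, against 0.02 over all probes, and 10 of them were at least 2-fold. No probe of the array was 2-fold lower. Among the 26, 23 had one sign on all 4 arrays, where 23% of all probes did. Of the 24 rises 21 were above 0 on every array, against 12.7% of all probes. The 26 were chosen by their values on these same arrays, so both shares follow in part from the choice. The exceptions were a116pe0022, a116pe0766 and a116pe0436, each below 0 on 1 array. At an unadjusted p under 0.05 there were 142 probes, 90 higher and 52 lower. The count rests in part on replicates 2 and 4: it was 16 without replicate 2, 12 without replicate 4 and 5 without both, all of them rises, against 28 without replicate 1 and 36 without replicate 3. The 4 RIL66 arrays fitted without the other lines gave 11, with the spread taken from those arrays alone.

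**Figure D2:**
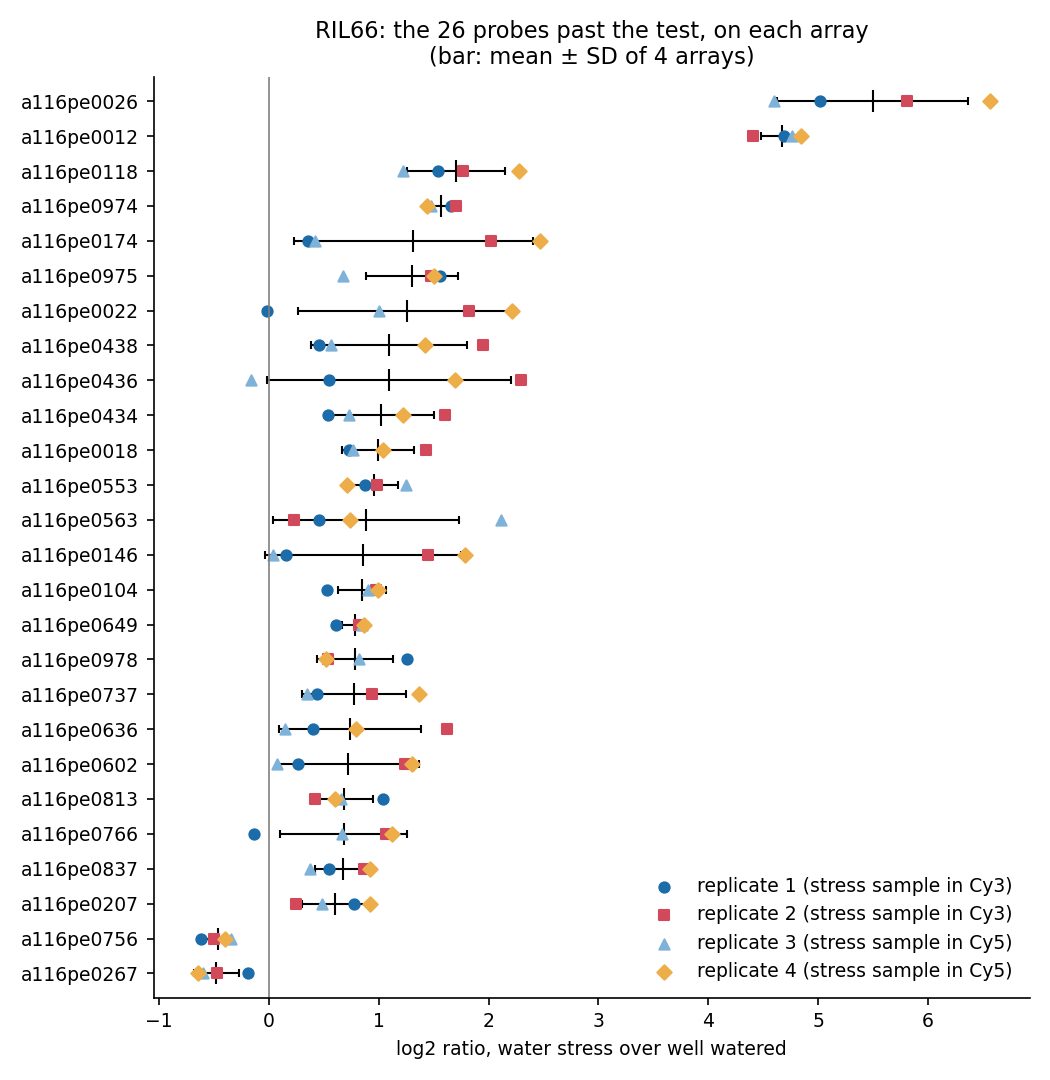
Log2 ratio of water stress over well watered on each of the 4 RIL66 arrays for the 26 probes that passed the test, ordered by their mean. Black bars give the mean ± SD, and colours and shapes the replicates. Probes a116pe0026 and a116pe0012 lie between 4.40 and 6.56 on every array, and all other values are at most 2.46.

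Probes a116pe0026 and a116pe0012 stood far above the rest. The log2 ratio of a116pe0026 was 5.02, 5.81, 4.60 and 6.56 on replicates 1 to 4, that is 5.50 ± 0.87 (SD, n = 4 arrays), a 45.2-fold rise (SE 0.48 in the fit, adjusted p = 3.80e-07). That of a116pe0012 was 4.69, 4.40, 4.76 and 4.85, a mean of 4.67 ± 0.19 and a 25.5-fold rise (SE 0.45, adjusted p = 9.78e-07). The lowest of these 8 values was therefore above every value of every other probe that passed the test, in both dye orientations. Their spots were bright under stress, with scanned intensities from 11892 to 34268 for a116pe0026 and from 17315 to 48212 for a116pe0012. Under full watering the intensities were 599 to 1354 and 943 to 2630, and the watered channel of both probes was above background on 3 of 4 arrays, replicate 3 being the exception. Over all settings tried the log2 change ran from 4.06 to 5.91 at a116pe0026 and from 3.87 to 5.14 at a116pe0012, lowest for both with no background correction. Both rises passed without any single array and without replicates 2 and 4 together, where the log2 changes were 4.81 and 4.73 (adjusted p = 0.000806 for both).

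In normalised channel levels (log2 intensity, a description with no test), RIL66 stood apart from all the other lines in the well watered sample. In the stressed sample it stood apart from RIL60, and from RIL68 without replicate 2 of that line (values below). Under stress a116pe0026 read 14.21 to 14.74 on the RIL66 arrays and 12.20 to 14.81 on the 12 other arrays, so the ranges overlap, although RIL60 (12.41 to 13.71) lay wholly below RIL66. Under full watering it read 8.02 to 9.90 in RIL66 and 11.10 to 14.43 elsewhere, with no overlap. Probe a116pe0012 had the same layout: 14.53 to 15.66 under stress in RIL66 against 11.94 to 15.56 elsewhere (11.94 to 12.98 in RIL60), and 10.02 to 10.97 under full watering against 11.81 to 15.53.

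One array of RIL68, replicate 2, stands apart at both probes and is the only array of its day. It had log2 ratios of 3.71 for a116pe0026 and 3.62 for a116pe0012. The other 3 RIL68 arrays were between -0.77 and -0.71 for a116pe0026 and between -1.49 and -0.85 for a116pe0012. Without that array the well watered levels of the other lines started at 12.97 for a116pe0026 and 13.83 for a116pe0012. Under stress that array read 14.81 and 15.43. The other 3 RIL68 arrays read 12.20 to 12.69 and 12.98 to 13.68, below every RIL66 array, whereas RIL78 overlapped RIL66 (13.53 to 14.60 and 15.32 to 15.56). In RIL60 the ratios were below 0 on all 4 arrays, from -1.65 to -0.71 for a116pe0026 and from -1.99 to -1.43 for a116pe0012. In RIL78 they were near 0 or above it, from 0.19 to 0.89 and from -0.07 to 0.44. The RIL78 spots of a116pe0012 were very bright, at 47798 to 55760 under stress and 36390 to 49278 under full watering. The highest intensity scanned was 65535, and whether such brightness narrowed these ratios was not tested. Over the 16 arrays the ratios of the 2 probes had a Pearson correlation of 0.98, as a description of arrays that share lines. The 2 probes were chosen for their high ratios on the RIL66 arrays, which by itself raises this correlation. Their slide positions are not adjacent, and the probes next to a116pe0012 had RIL66 means between -0.26 and 0.14.

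**Figure D3:**
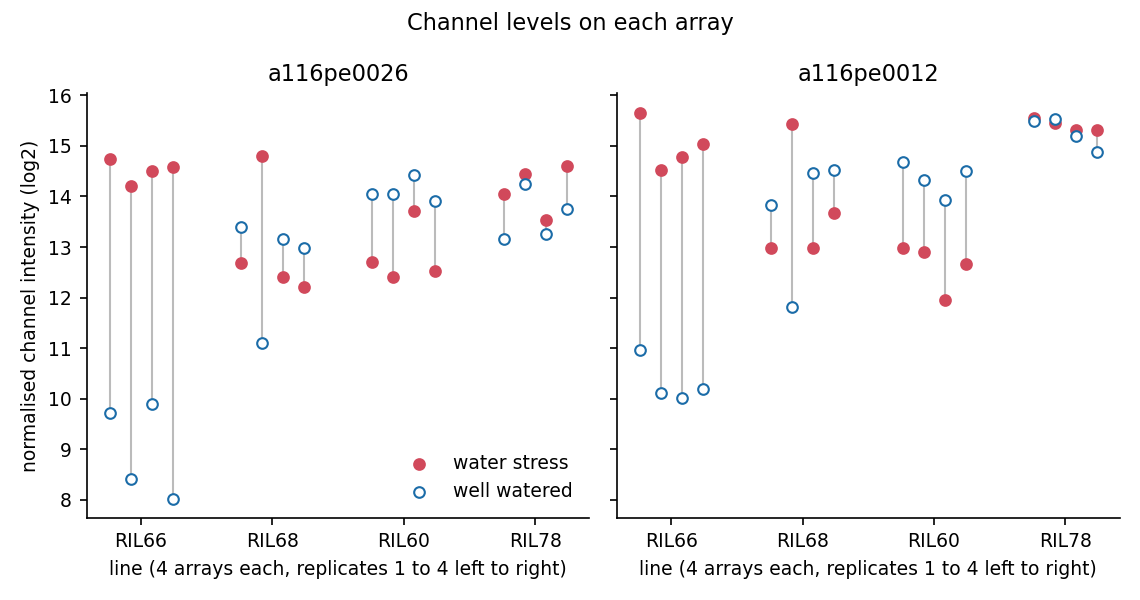
Normalised channel intensity (log2) of probes a116pe0026 and a116pe0012 on each array, with 4 arrays per line in the order of their replicate numbers. Filled points are stressed and open points well watered kernels, joined within an array. On the RIL66 arrays the well watered points lie at 8.02 to 9.90 and 10.02 to 10.97, below those of all other arrays.

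The next largest rises were those of a116pe0118 and a116pe0974. Probe a116pe0118 had log2 ratios of 1.54, 1.77, 1.22 and 2.28, a mean of 1.70 ± 0.45 and a 3.25-fold rise (adjusted p = 4.31e-05). Probe a116pe0974 had 1.66, 1.70, 1.48 and 1.44, a mean of 1.57 ± 0.13 and a 2.97-fold rise (adjusted p = 3.80e-07). The 4 values of a116pe0974 lie closer together than those of any other of the 8 largest rises, and both responses passed without replicates 2 and 4, where the changes were 1.38 (adjusted p = 0.0120) and 1.57 (adjusted p = 0.000667). Both channels of both probes were above background on all 4 arrays. At a116pe0974, unlike at the 2 largest rises, RIL66 was the brightest line in both conditions: its level was 13.69 to 14.05 under stress and 11.99 to 12.59 under full watering, against 9.45 to 11.71 and 9.82 to 11.52 on the other 12 arrays.

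Probe a116pe0975 had log2 ratios of 1.56, 1.48, 0.68 and 1.50, a mean of 1.30 ± 0.42 and a 2.47-fold rise (adjusted p = 0.00207). Replicate 3 was low and the other 3 arrays lay close together. Without replicate 4 the change was 1.07 and missed the threshold (adjusted p = 0.0519), and without replicates 2 and 4 it was 1.12 (adjusted p = 0.151).

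In 5 of the 8 largest rises replicates 2 and 4 were both above replicates 1 and 3: in a116pe0026 and a116pe0118, described above, and in the 3 that follow. Probe a116pe0174 had log2 ratios of 0.35, 2.02, 0.42 and 2.46, a mean of 1.31 ± 1.09 (adjusted p = 0.00567). Probe a116pe0022 had -0.02, 1.83, 1.00 and 2.22, a mean of 1.26 ± 0.99 (adjusted p = 0.00567). Probe a116pe0438 had 0.46, 1.95, 0.56 and 1.42, a mean of 1.10 ± 0.71 (adjusted p = 0.00207). In each of these 3, the 2 pairs of arrays lie apart by more than the mean response itself. Probes a116pe0174 and a116pe0022 missed the threshold without replicate 2 (adjusted p = 0.0796 and 0.0749) and without replicate 4 (0.117 for both). Without both arrays the changes were 0.38 for a116pe0174 (adjusted p = 0.737), 0.49 for a116pe0022 (adjusted p = 0.703) and 0.51 for a116pe0438 (adjusted p = 0.366). With no background correction the changes of a116pe0174 and a116pe0022 were 0.45 and 0.68 (adjusted p = 0.0172 and 0.00898). The stress channel of a116pe0174 was above background on 1 of 4 arrays, as was its well watered channel. That of a116pe0022 was above background on 2 arrays under stress and on 3 under full watering.

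The same order of arrays recurred among the rises as a whole. Replicates 2 and 4 were both above replicates 1 and 3 for 15 of the 24, where this was so for 22.3% of all probes. The 24 were chosen by their high values on these same arrays, which by itself can raise this count and that among the largest rises. Replicates 2 and 4 are also the arrays on which the mwgratcontrol spots were shifted the same way, with medians of 0.84 and 0.71. Their part in these rises was not tested. The log2 ratios of replicates 2 and 4 had a Pearson correlation of 0.63 over all probes, against 0.37 to 0.41 for the other 5 pairs of arrays. Without the 26 probes it was 0.40 for that pair and -0.01 to 0.20 for the others. Probes are not independent replicates, and these values describe the arrays only. Without replicates 2 and 4 together, 5 of the 26 still passed, namely a116pe0026, a116pe0012, a116pe0974, a116pe0118 and a116pe0978.

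**Figure D4:**
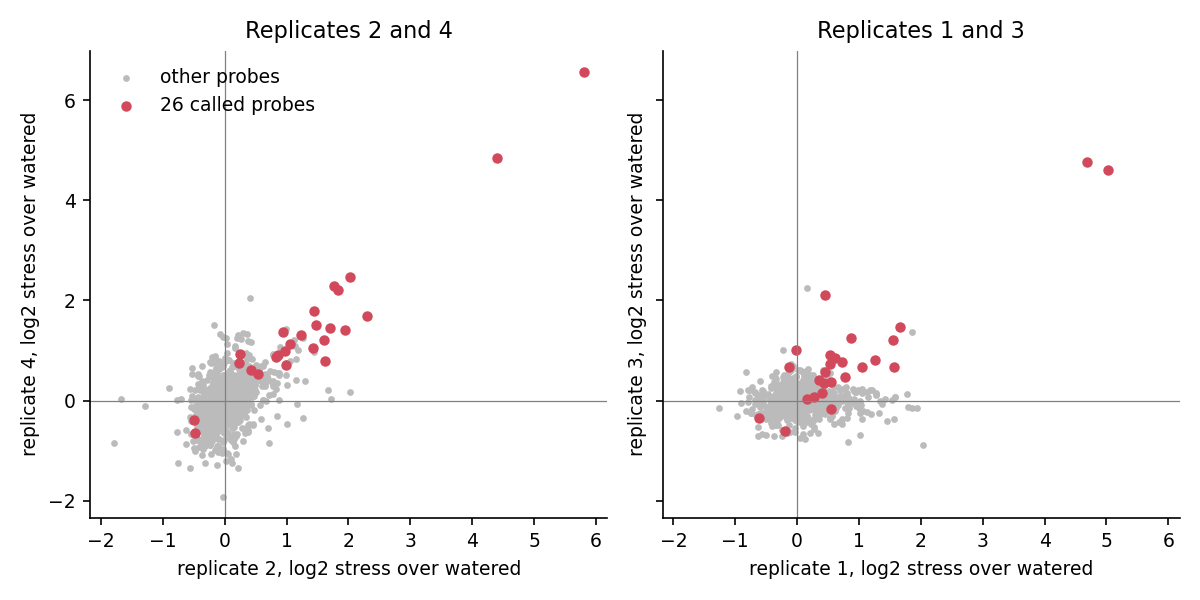
Log2 ratio of water stress over well watered of each of the 1000 probes, replicate 4 against replicate 2 (left) and replicate 3 against replicate 1 (right), on one scale. Red points are the 26 probes that passed the test and grey points the others. The grey cloud slopes upward on the left (Pearson correlation 0.40 without the red points) and not on the right (0.05).

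The remaining 16 rises had mean log2 ratios between 0.61 and 1.09. Probe a116pe0978 had 1.26, 0.54, 0.82 and 0.52, a mean of 0.78 ± 0.34 (adjusted p = 0.00136), with replicate 1 the highest, and it rose by 1.04 without replicates 2 and 4 (adjusted p = 0.00214). Probe a116pe0649 was even across the arrays, at 0.61, 0.82, 0.84 and 0.87 (mean 0.79 ± 0.12, adjusted p = 0.00220). Probe a116pe0434 had 0.54, 1.60, 0.73 and 1.22 (mean 1.02 ± 0.48, adjusted p = 0.000837), with all values above 0.50. These 3 probes were above background in both channels on all 4 arrays. Probe a116pe0649 stood, without replicates 2 and 4, at 0.73 (adjusted p = 0.151) and a116pe0434 at 0.63 (adjusted p = 0.188). With no background correction a116pe0649 stood at 0.46 and missed the threshold (adjusted p = 0.0568).

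Probes a116pe0018 (mean 0.99 ± 0.33), a116pe0104 (0.85 ± 0.22) and a116pe0837 (0.68 ± 0.26) shared an adjusted p of 0.00207 and passed without each single RIL66 array. They stood without replicates 2 and 4 together at 0.75, 0.72 and 0.46, and did not pass (adjusted p = 0.266, 0.188 and 0.278). In all 11 of the 26 passed in every fit that left out 1 RIL66 array. They were a116pe0026, a116pe0974, a116pe0012, a116pe0118, a116pe0434, a116pe0978, a116pe0438, a116pe0837, a116pe0018, a116pe0104 and a116pe0649.

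The other 10 rises each missed the threshold without at least 1 of the 4 arrays. They were a116pe0436 (mean 1.09 ± 1.11), a116pe0553 (0.95 ± 0.22), a116pe0146 (0.86 ± 0.89), a116pe0636 (0.74 ± 0.64), a116pe0602 (0.72 ± 0.64), a116pe0813 (0.68 ± 0.26), a116pe0766 (0.68 ± 0.58), a116pe0207 (0.61 ± 0.30), a116pe0737 and a116pe0563, with adjusted p between 0.00894 and 0.0398. The stress signals of a116pe0737 and a116pe0563 were not well above background on any RIL66 array, so no fold is given for them. Their well watered signals were above background on 2 arrays and 1 array. With no background correction a116pe0737 stood at 0.30 (adjusted p = 0.0226) and a116pe0563 at 0.05 (adjusted p = 0.751). Probe a116pe0563 missed too with plain subtraction (0.14, adjusted p = 0.424), the deposited values (0.15, adjusted p = 0.252) and loess within print blocks (0.34, adjusted p = 0.292). At a116pe0563 the mean of the 4 arrays also rests on replicate 3, at 2.11 against 0.23 to 0.74 on the others. Probes a116pe0553 and a116pe0813 were above background in both channels on all 4 arrays and did not follow the order of replicates 2 and 4. These 10 stood, without replicates 2 and 4, between 0.10 and 1.28 and none passed (adjusted p from 0.0960 to 0.973). With no background correction a116pe0436 (0.93, adjusted p = 0.0568), a116pe0146 (0.31, adjusted p = 0.0853) and a116pe0602 (0.48, adjusted p = 0.0568) missed as well.

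Falls were few and small. Probe a116pe0267 had log2 ratios of -0.19, -0.48, -0.60 and -0.65, a mean of -0.48 ± 0.21 (adjusted p = 0.0336). Probe a116pe0756 had -0.62, -0.50, -0.35 and -0.40, a mean of -0.47 ± 0.12 (adjusted p = 0.0142). Both were below 0 on all 4 arrays, as were 10.3% of all probes, and neither passed without replicate 2 (adjusted p = 0.112 and 0.0609) or replicate 4 (0.199 and 0.0737). Probe a116pe0267 also missed without replicate 3 (0.106) and a116pe0756 without replicate 1 (0.0648). Without replicates 2 and 4 together they stood at -0.39 (adjusted p = 0.518) and -0.48 (adjusted p = 0.188). The nearest probes that did not pass were a116pe0796, at -0.44, -0.62, -0.10 and -0.87 (adjusted p = 0.0510), and a116pe0120, at -0.46, -0.38, -0.20 and -0.56 (adjusted p = 0.0566).

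Some of the 26 lie side by side on the slide. A neighbouring position held another of them for 9 of the 26 (34.6%), against 15.1% of the 974 probes that did not pass, given here as a description. Probe a116pe0022 lies next to a116pe0026 and a116pe0018, a116pe0974 next to a116pe0978, a116pe0434 next to a116pe0438, and a116pe0267 next to a116pe0207. The bright spot of a116pe0026 has 4 other neighbours, with means between -0.21 and 0.34. Whether neighbouring spots share signal was not tested.

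Most of the RIL66 response was not seen in the same test of the other lines. Of the 26 probes, 5 also passed in RIL60 (background 2.9%), 4 in RIL78 (7.5%) and 0 in RIL68 (0.7%), and 18 passed in no other line. In RIL68 5 of the 26 had an unadjusted p under 0.05, where 12.6% of all probes did. In RIL60, where 2.2% of all probes rose, 4 moved the same way as in RIL66: a116pe0104 rose by 1.13 ± 0.33 (adjusted p = 9.29e-05), a116pe0737 by 1.30 ± 0.31, a116pe0813 by 0.71 ± 0.32 and a116pe0649 by 0.63 ± 0.18. In RIL78, where 4.2% of all probes rose and 3.3% fell, a116pe0174 rose by 1.46 ± 0.32 (adjusted p = 0.00192) and a116pe0434 by 0.72 ± 0.41 (adjusted p = 0.00936). The remaining shared calls went the opposite way: a116pe0012 was lower under stress in RIL60 (-1.74 ± 0.24, adjusted p = 0.0442), a116pe0649 was lower in RIL78 (-1.12 ± 0.36, adjusted p = 7.01e-05), and a116pe0267 was higher in RIL78 (0.59 ± 0.14, adjusted p = 0.00507). A pass in one line and not in another does not show a difference, which the next comparisons test.

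**Figure D5:**
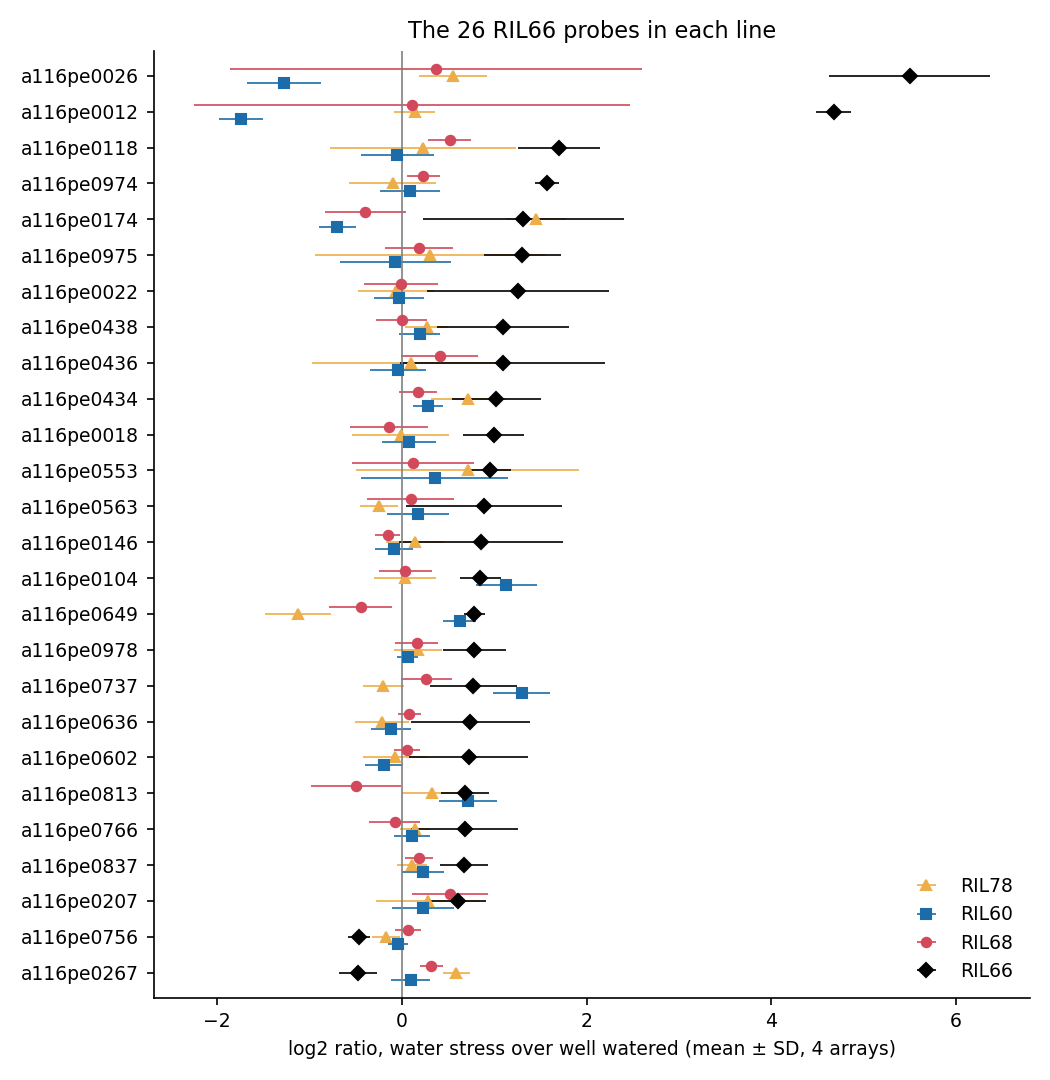
Mean ± SD over 4 arrays of the log2 ratio of water stress over well watered in each line, for the 26 probes that passed the test in RIL66. Black diamonds are RIL66. At a116pe0104, a116pe0737, a116pe0649 and a116pe0813 RIL60 (blue squares) lies beside RIL66, and at a116pe0174 RIL78 (yellow triangles) does.

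The response of RIL66 was first set against that of RIL68, the other susceptible line. It differed at 10 probes (1%), 8 higher (0.8%) and 2 lower (0.2%) in RIL66, with 123 probes at an unadjusted p under 0.05. Of the 26 probes above, 8 were among them, and for 18 the 4 RIL66 arrays did not overlap the 4 RIL68 arrays, where 4.9% of all probes lay above and 1.9% below without overlap. The 26 were chosen by their RIL66 values, which by itself raises such counts. On the log2 scale the difference was 5.13 at a116pe0026 (SE 0.68, adjusted p = 0.000389). At a116pe0012 it was 4.57 (SE 0.64, adjusted p = 0.000426). Without replicate 2 of RIL68 these differences were 6.25 and 5.72, without replicates 2 and 4 of RIL66 they were 4.44 and 4.62 (adjusted p = 0.0197 for both), and with the arrays scaled to one spread they missed the threshold, at 4.44 and 3.90 (adjusted p = 0.0770 and 0.129).

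Next came a116pe0174, higher in RIL66 by 1.71 (SE 0.37, adjusted p = 0.0210), with RIL68 at -0.40 ± 0.44. It missed the threshold when replicate 2 or 4 of RIL66 was left out (adjusted p = 0.0865 and 0.0939), and when replicate 3 of RIL68 was (0.120). Its size depended on the background: the difference was 0.54 with no background correction (adjusted p = 0.0629), 0.75 with plain subtraction (adjusted p = 0.0474), 0.74 in the deposited values (adjusted p = 0.0381) and 1.23 with array weights (adjusted p = 0.0526). Probe a116pe0974 was higher by 1.34 (SE 0.20, adjusted p = 0.000619), with RIL68 between 0.03 and 0.46 on its 4 arrays, and by 1.34 without replicates 2 and 4 of RIL66 (adjusted p = 0.0197). Probe a116pe0649 was higher by 1.23 (SE 0.20, adjusted p = 0.00179): it was above 0 on every RIL66 array and below 0 on every RIL68 array, from -0.82 to -0.02. Both probes that were lower in RIL66 had positive means in RIL68. Probe a116pe0973 rose in RIL68 by 1.08 ± 0.20 (adjusted p = 0.00282) but read 0.05, -0.77, 0.20 and -0.63 in RIL66, a difference of -1.37 (SE 0.25, adjusted p = 0.00461). Probe a116pe0267 was at 0.32 ± 0.13 in RIL68, a difference of -0.80 (SE 0.17, adjusted p = 0.0189) that missed the threshold when replicate 4 of RIL66 was left out (0.0800), and when replicate 1 or 3 of RIL68 was (0.0677 and 0.0579). Without replicates 2 and 4 of RIL66, a116pe0649 (1.18, adjusted p = 0.0514), a116pe0174 (0.78, adjusted p = 0.340), a116pe0973 (-0.96, adjusted p = 0.152) and a116pe0267 (-0.71, adjusted p = 0.205) missed the threshold. At a116pe0973 the 2 RIL66 values below 0 are those of these arrays. Without replicate 2 of RIL68 the count was 11, and a116pe0174 (1.87), a116pe0974 (1.41), a116pe0649 (1.16), a116pe0973 (-1.43) and a116pe0267 (-0.84) all passed. With no background correction a116pe0649 and a116pe0973 stood at 0.77 and -0.72 and passed (adjusted p = 0.0341 and 0.0129). With median centring a116pe0267 missed (-0.66, adjusted p = 0.282). Leaving out replicate 1 of RIL66 gave 21 probes, replicate 3 gave 18, and replicates 2 and 4 together left 3. A fit with the day as a block reads this comparison from 1 RIL66 array, replicate 4, against the 3 RIL68 arrays of its day, and assumes that the lone array varies like the others. That fit gave 19 probes, 3 of them among the 10: a116pe0026 (7.33), a116pe0012 (5.88) and a116pe0174 (3.12). Replicate 4 is one of the arrays with shifted control spots. Probe a116pe0974 missed in that fit, at 1.48 (adjusted p = 0.0628), as did a116pe0973 (-1.66, adjusted p = 0.0639), a116pe0649 (1.13, adjusted p = 0.108) and a116pe0267 (-1.08, adjusted p = 0.0781).

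Against the mean of the other 3 lines, RIL66 differed at 39 probes (3.9%), 22 higher (2.2%) and 17 lower (1.7%), with 156 at an unadjusted p under 0.05. RIL60 and RIL78 share no day with RIL66, so line and day cannot be told apart in that part of the comparison. Of the 26 probes above, 15 were higher than the other lines and 1, a116pe0267, was lower. The 4 RIL66 arrays lay above all 12 others at a116pe0026, a116pe0974, a116pe0012, a116pe0118, a116pe0978 and a116pe0018, that is 6 of the 26 where 0.701% of all probes did, and below all 12 at a116pe0267 (0.701% of all probes). Here too the choice of the 26 by their RIL66 values raises such counts. The largest differences were 5.62 for a116pe0026 (SE 0.56, adjusted p = 2.93e-06) and 5.17 for a116pe0012 (SE 0.52, adjusted p = 2.93e-06). Probes a116pe0974 (1.50, SE 0.16, adjusted p = 5.72e-06) and a116pe0118 (1.47, SE 0.25, adjusted p = 0.00162) followed, and without replicates 2 and 4 of RIL66 they stood at 1.50 (adjusted p = 0.00134) and 1.15 (adjusted p = 0.0877, short of the threshold). The fifth, a116pe0746, differed by 1.37 (SE 0.31, adjusted p = 0.0205), and its lowest line was RIL78, at -3.11 ± 1.08. RIL60 (-0.17 ± 0.23) and RIL68 (0.17 ± 0.21) were near RIL66 (0.34 ± 0.62), and the difference from RIL68 alone was 0.16 (adjusted p = 0.890). In RIL66 the probe read -0.08, 0.27, -0.08 and 1.23, and its stress signal never reached well above background. Without replicate 4 of RIL66 its difference from the mean of the other 3 lines missed the threshold (1.04, adjusted p = 0.141). It also missed with no background correction (0.65, adjusted p = 0.263), plain subtraction (0.79, adjusted p = 0.211), the deposited values (0.84, adjusted p = 0.187) and arrays scaled to one spread (1.17, adjusted p = 0.115).

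On the lower side, a116pe0973 stood at -1.21 (SE 0.20, adjusted p = 0.00162), with a rise of 1.57 ± 0.11 in RIL60, the rise in RIL68 given above and RIL66 values on both sides of 0 (adjusted p = 0.485). RIL78 did not pass either, at 0.14 ± 0.52 (adjusted p = 0.726), with signal above background on 2 arrays under stress and 1 under full watering. Without replicates 2 and 4 of RIL66 the difference at a116pe0973 stood at -0.80 and missed the threshold (adjusted p = 0.154). With no background correction it stood at -0.76 and passed (adjusted p = 0.000905). Probe a116pe0507 stood at -0.92 (SE 0.16, adjusted p = 0.00198): it was below 0 on all 4 RIL66 arrays, from -0.79 to -0.02, and rose in RIL60 by 0.63 ± 0.48 and in RIL78 by 0.82 ± 0.55. In RIL60 it read 1.13 and 0.94 with stress in Cy5, against 0.18 and 0.28 in Cy3. In RIL78 it read 1.10 and 1.45 with stress in Cy5, against 0.32 and 0.39 in Cy3. It passed without replicates 2 and 4 of RIL66, at -1.02 (adjusted p = 0.0122). Probe a116pe0970 also differed by -0.92 (SE 0.23, adjusted p = 0.0298), at -0.08 ± 0.12 in RIL66 against 1.43 ± 0.90 in RIL78. In RIL78 it read 1.99 and 2.39 with stress in Cy5, against 0.79 and 0.55 in Cy3. It missed without replicate 3 or 4 of RIL66 (adjusted p = 0.0943 and 0.187) or replicate 2 of RIL60 (0.0560), with no background correction (-0.64, adjusted p = 0.0564), with median centring (0.0592), with loess within print blocks (0.0549) and with no dye term (0.152).

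Probe a116pe0853 differed by -0.86 (SE 0.22, adjusted p = 0.0308), with -0.68, -0.76, 0.01 and -1.25 in RIL66. In RIL60 it read 1.19 and 1.12 with stress in Cy5, against -0.03 and -0.04 in Cy3. In RIL78 it read 0.47 and 0.62 with stress in Cy5, against -0.36 and -1.08 in Cy3. Its stress signal was not well above background on any RIL66 array, so no fold is given for it. Within RIL66 its response was short of the threshold (adjusted p = 0.0638). The difference missed without replicate 4 of RIL66 (-0.50, adjusted p = 0.211), replicate 1 or 2 of RIL60 (0.0508 and 0.0570) or replicate 2 of RIL78 (0.0504), with median centring (0.0520), loess within print blocks (0.0577), array weights (0.0518) and no dye term (0.190), and it stood at -0.38 with no background correction (adjusted p = 0.0212). Probe a116pe0267 stood at -0.81 (SE 0.14, adjusted p = 0.00165): it was below 0 on all 4 RIL66 arrays, and its mean was above 0 in the other 3 lines. Without replicates 2 and 4 of RIL66, a116pe0267 (-0.73, adjusted p = 0.0954), a116pe0746 (0.96, adjusted p = 0.346), a116pe0970 (-0.90, adjusted p = 0.204) and a116pe0853 (-0.53, adjusted p = 0.324) missed the threshold. The count of 39 was 32 without replicate 2 of RIL68, 19 without replicate 4 of RIL66, 24 without replicate 2 of RIL60 and 7 without replicates 2 and 4 of RIL66 together.

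The dye swap gives a last, limited check of these ratios. Within RIL66 both arrays with stress in Cy3 share a day, and those with stress in Cy5 fall on other days. Dye orientation and day therefore cannot be told apart within RIL66. The dye part of the ratios in RIL66 had a correlation of 0.08 with that in RIL60, 0.07 with RIL68 and 0.16 with RIL78. The 2 orientations of RIL66 differed from the dye effect of the other lines at 1 of 1000 probes (0.1%), a116pe0708 (adjusted p = 0.0367), which is none of the 26. It read 1.86, 0.41, 1.38 and 2.06 on the RIL66 arrays (mean 1.42 ± 0.73, adjusted p = 0.0758 for the response). At an unadjusted p under 0.05 there were 99 such probes. Without replicate 4 no probe passed (40 at an unadjusted p under 0.05), and without replicates 1, 2 and 3 the count was 5, 5 and 4. For the 2 largest rises the mean was 5.41 with stress in Cy3 and 5.58 with stress in Cy5 at a116pe0026, and 4.55 and 4.80 at a116pe0012.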

How the data were processed

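Per the file headers, the authors deposited for each array a linear intensity and local background per spot and channel from a ScanArray scanner, without background subtraction. They also deposited a table of log2 ratios, and the steps behind it are not given in the sources used here. It correlated at 0.88 to 0.99 per array with the ratios computed here, which bears out its direction and centring (medians -0.00533 to 0.0125). Its scale stays unknown, and it served as an alternative. The authors marked 9 probe spots on the RIL66 arrays to be ignored, which were left out.

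Intensities were corrected with normexp (offset 50) and loess normalised within arrays in limma 3.58.1 (R 4.3.3), with control spots at weight 0. Both spots of each probe were averaged, and signs follow the labelled dyes. Such scaling hides any shift common to all probes. Spots counted as above background if they passed it by over 2 of its SDs. One limma fit (lmFit, eBayes) to the 16 arrays had 1 term for each line and 1 for dye, with Benjamini-Hochberg adjustment over 1000 probes and a threshold of 0.05. Channel levels used Aquantile scaling. The number of arrays and signal over background limit the precision. The script was tested on simulated data. All probes that passed in RIL66 are named. For differences between lines the 5 largest per direction are named. Array values cover the 8 largest rises and 4 falls, and further probes were given array values after their values were seen. Probes, lists and tests were chosen with earlier results of these data known. Alternatives covered background, normalisation, filters, blocks, dye term, weights, deposited values and left-out arrays. Leaving out replicates 2 and 4 together, and the stricter filter on dim probes, were chosen after seeing the data. Figures were drawn with matplotlib 3.10.9.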

Additional observations from a re-analysis of the deposited data

Results flagged for a closer look

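In RIL66, replicate 3 of a116pe0975 (0.68) lay far from the other 3 arrays. In RIL68, replicate 2 lay far from the other 3 arrays at a116pe0026 (3.71) and a116pe0012 (3.62). These were 3 of 34 groups of 4 values looked at, and chance alone gives about 1 in 20.

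The response of RIL66 differed from that of RIL68, by the test of the difference itself, at a116pe0026 (5.13), a116pe0012 (4.57), a116pe0174 (1.71), a116pe0974 (1.34), a116pe0649 (1.23), a116pe0267 (-0.80) and a116pe0973 (-1.37). It differed from the mean of the other 3 lines at a116pe0026 (5.62), a116pe0012 (5.17), a116pe0974 (1.50), a116pe0118 (1.47), a116pe0746 (1.37), a116pe0267 (-0.81), a116pe0853 (-0.86), a116pe0970 (-0.92), a116pe0507 (-0.92) and a116pe0973 (-1.21).

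Among spots that no comparison uses, those named mwgratcontrol had a median log2 ratio of 0.84 on replicate 2 and 0.71 on replicate 4 of RIL66, above the range of the 12 arrays of the other lines.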

How the results depend on the processing

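The 26 probes of RIL66 became 68 with the deposited values (35 higher, 33 lower, 25 shared), 15 at a threshold of 0.01, 11 with RIL66 fitted alone, with or without a dye term, 10 at 2-fold or more, 5 without replicates 2 and 4 together, and 12 to 36 without any single array. The split of higher and lower moved to 20 and 6 with no background correction (26 probes), 30 and 7 with plain subtraction (37), 30 and 9 with arrays scaled to one spread (39) and 18 and 4 with both channels above background on 3 arrays (22). The 10 differences from RIL68 became 21 with no background correction, 20 with subtraction, 25 with scaled arrays, 26 with the deposited values, 25 with both channels above background, 6 at 0.01, 19 with the day as a fixed block, where 1 RIL66 array counts, 3 without replicates 2 and 4, and 7 to 21 without any single array. The 39 differences from the other lines became 22 with median centring, 70 with the deposited values, 21 with no dye term, 12 at 0.01, 7 without replicates 2 and 4, and 19 to 38 without any single array. The 1 dye difference became 0 with no background correction or the deposited values, and 0 to 5 without single RIL66 arrays. The cause of these moves was not tested, beyond the fewer arrays or stricter limits themselves. If the direction of RIL66 were turned, the differences from RIL68 would be -5.87 (a116pe0026), -4.78 (a116pe0012), -1.80 (a116pe0974), -0.92 (a116pe0174), -0.34 (a116pe0649) and 0.16 (a116pe0267). Those from the other lines would be -5.38 (a116pe0026), -4.18 (a116pe0012), -1.94 (a116pe0118), -1.64 (a116pe0974), 0.14 (a116pe0267) and 0.48 (a116pe0853). Equal replicate numbers were not taken as pairs, since no label ties them. On same-numbered arrays RIL66 also had the opposite dye orientation to the other lines. The correlations of deviations between same-numbered arrays were nevertheless over 0.1 in 9 of 12 pairs (4 of 4 with RIL60, 3 of 4 with RIL78, 2 of 4 with RIL68). With the number as a replicate block the 3 counts were 31, 11 and 36. Of 1481 values of single probes under the alternatives, 1255 kept their direction and side of the threshold, 201 lost and 13 gained the call, and 12 reversed, all under the turned direction. Of the 26 probes, 15 passed under all of 6 other processing settings.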
